A study of Mus musculus with 38 samples.

Results

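Dentate gyrus granule cells that carried the Arc::dVenus signal were compared with granule cells that lacked it in the same animals, in mice that had received no shock. All 14 libraries of these mice were used, of 38 in the series, and they came from 7 of its 19 mice. The training group in the sample labels was the only criterion of choice: 4 mice had been placed in the conditioning context without a shock (NS, mice 18 to 21) and 3 had stayed in their home cage (HC, mice 15 to 17). All 14 libraries shared 1 series of sample IDs, I16-1315, whereas the libraries of the 12 fear conditioned (FC) mice carried other series.

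All mice, in every group, were male Arc::dVenus transgenics on C57BL/6J, 8 to 12 weeks old, in which the promoter of Arc drives a destabilized fluorescent protein. NS mice were taken 24 h after the exposure to the context, and HC mice had no training. By the methods of the study, NS mice went through the conditioning protocol, which includes tones, with the shocks left out. From each mouse 10 dVenus+ and 10 neighboring dVenus- granule cells were aspirated from slices into 1 library each, and full-length cDNA was amplified and sequenced. The reporter is tied to the Arc promoter, so a cell counts as dVenus- when its signal was not seen in the slice, whatever else the cell expressed.

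Arc is an immediate early gene: synaptic activity switches on its transcription, its mRNA travels to dendrites, and its protein takes part in the removal of AMPA receptors from synapses. Granule cells are the principal neurons of the dentate gyrus, and at rest only a sparse set of them shows Arc. Besides the rapid genes such as Arc and Fos, activity induces slower genes that encode secreted factors, kinases and synaptic proteins, among them Inhba, Bdnf, Nptx2, Penk and Sorcs3.

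For each library the deposited values were uncorrected counts of reads on genes. Between 5713182 and 8470731 reads were counted in dVenus+ libraries and between 6856117 and 9096451 in dVenus- libraries of these mice. The mean difference was -1610400 reads (SD 1394300, n = 7 mice, p = 0.0625 in an exact sign-flip permutation test, two-sided, adjusted p = 0.125 over 4 measures). Rn45s, the 45S precursor of ribosomal RNA, took a median of 57.6% of the counts in dVenus+ libraries (30.9% to 70.0%) and 11.5% in dVenus- libraries (6.82% to 53.5%), and its share was higher in dVenus+ cells of 6 of 7 mice. The 10 largest genes together took 40.2% to 84.4% of the dVenus+ and 11.0% to 63.2% of the dVenus- counts, a difference of 29.9 percentage points (SD 23.98, n = 7, p = 0.03125 in the same exact test, adjusted p = 0.125). Reads outside genes made up 20.0% to 44.9% of the uniquely aligned reads in dVenus+ and 16.4% to 34.9% in dVenus- libraries, 12.1 points more in dVenus+ cells (SD 14.8, n = 7, exact p = 0.0938, adjusted p = 0.125). The smallest p that 7 mice allow in this test is 0.0156. None of the 4 measures passed after adjustment, but the reporter state and these library properties moved together in most mice, and their part in the gene results below was not tested except by the fits with a covariate given beside them.

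**Figure D1:**
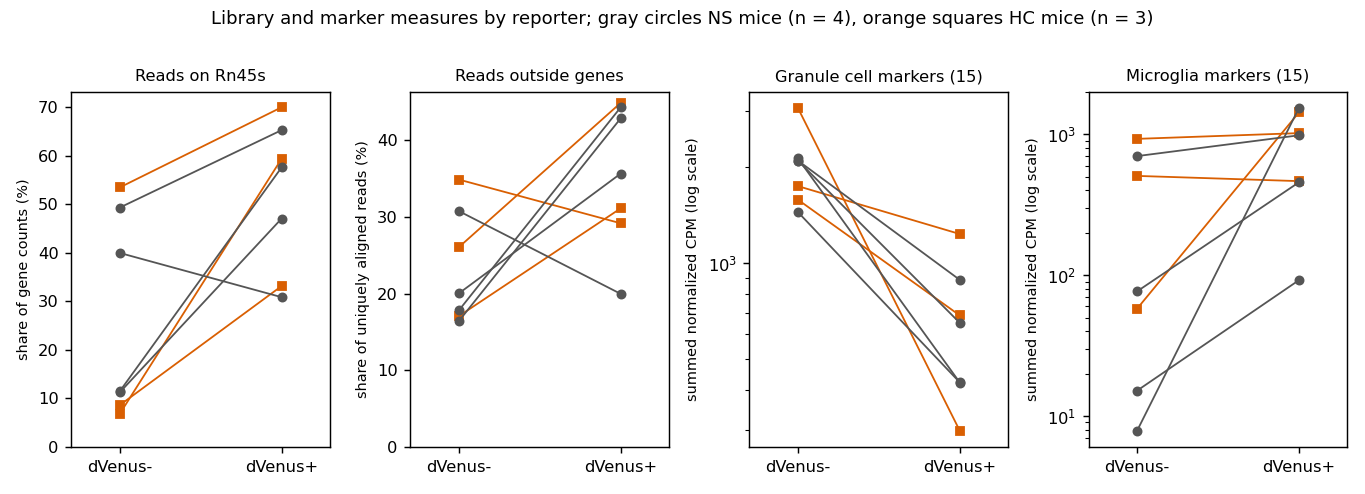
Rn45s share of gene counts, share of uniquely aligned reads outside genes, and summed levels of granule cell and microglia markers (normalized CPM, log axis) in each library, with the libraries of 1 mouse joined by a line. Rn45s was higher in dVenus+ cells of 6 of 7 mice, the granule marker sum was lower in dVenus+ cells of all 7, and the microglia marker sum was higher in 6.

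In unshocked mice 24 genes rose with the reporter and 33 fell. These genes were called on an adjusted p under 0.05 together with a log2 fold change beyond 1 in either direction. With 7529 genes tested, the 57 called genes were 0.757% of them, the higher ones 0.319% and the lower ones 0.438%. Among the genes that rose were Arc, the activity-dependent genes Inhba and Sgk1, and the nuclear noncoding RNA Malat1. Among those that fell were Shroom2 and the synaptic and calcium-binding genes Chn1, Snap25, Rab3a, Calm2 and Ncald.

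The difference had the same sign in 7 of 7 mice for 50 of the 57 genes (21 higher and 29 lower), against 482 of all genes tested, or 6.4%. For 27 called genes (11 higher and 16 lower) the 7 dVenus+ libraries did not overlap the 7 dVenus- libraries, which was the case for 84 genes in all, 1.12%. The 57 genes were chosen by a paired test on these same libraries, so both counts are a description and lend the calls no support. Many margins were narrow: 6 genes had an adjusted p under 0.01, and 24 of the 57 lay between 0.049 and the threshold. At an unadjusted p under 0.05 there were 1229 genes, 581 higher and 648 lower. The biological coefficient of variation between libraries of 10 cells was 1.40.

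Which genes were called rested on the set of mice. Without mouse 15, 16, 17, 18, 19, 20 or 21, the count was 4, 8, 45, 9, 12, 5 and 8. Arc, Shroom2 and Malat1 were called in all 7 of these fits, Inhba and Chn1 in 5, and 22 of the 57 genes in none. Of the other genes described here, 3632454L22Rik was called in 6 and Rn45s in 4. Snap25, Calm2, Fth1, Acot13, A630033H20Rik and Lars2 were called in 2. Sgk1, Rnft1, Medag, Ptprb, Mob3c, Tdrd1, Idh3a, Ncald, Ncdn, Ctxn1, Pea15a, Ywhah, Rpl34, Actb and Tpi1 were called in 1. Kcnq1ot1, Rab3a, Kif15, Rgs9bp, Hpca, Rgs14, Adcyap1r1, Dpysl2 and Cobl were called in 0. With the share of reads outside genes, or the share of Rn45s, as a covariate, edgeR called 0 genes (856 and 667 at an unadjusted p under 0.05), whereas 1065 were called by the Wald test of DESeq2.

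Arc was the check of the reporter label and is not a result. Its level was 105 to 755 in dVenus+ libraries, median 211, and 0 to 5.16 in dVenus- libraries, median 0.159, in normalized CPM. Levels in normalized CPM are reads as parts of the TMM-scaled library size, not corrected for gene length. The groups did not overlap, and Arc was higher in dVenus+ cells of 7 of 7 mice, by 8.31 on the log2 scale (SE 1.05, adjusted p = 4.08e-05, edgeR quasi-likelihood test with Benjamini-Hochberg adjustment, as for all adjusted p-values that follow). The gene lies at chr15:74669083-74672570 on the minus strand (GRCm38). The call was lost with either covariate (adjusted p = 0.106 and 0.234) and in the HC mice alone (0.455), where the log2 fold change stayed between 7.85 and 8.33.

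Among genes that follow neuronal activity, Inhba and Sgk1 rose with the reporter. Inhba, at chr13:16011851-16031621 on the plus strand, encodes the beta A subunit of activin and inhibin, and its expression in granule cells rises with activity. It measured 16.1 to 227 in dVenus+ libraries (median 82.2) and 0 to 3.71 in dVenus- libraries (median 0). The libraries did not overlap, and the log2 fold change was 7.60 (SE 1.38, adjusted p = 0.00836, higher in 7 of 7 mice); without mouse 20 or 21 the adjusted p was 0.0620 and 0.0538. Sgk1, a kinase induced by serum and glucocorticoids, at chr10:21882184-21999903, measured 0 to 315 in dVenus+ (median 20.8) and 0 to 1.58 in dVenus- libraries (median 0.101). It was higher in 6 of 7 mice, by 7.38 (SE 1.71, adjusted p = 0.0491), and was listed at 0 in the dVenus+ library of mouse 19. When mice were left out in turn, it was called only without mouse 19 (adjusted p = 0.0448).

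**Figure D2:**
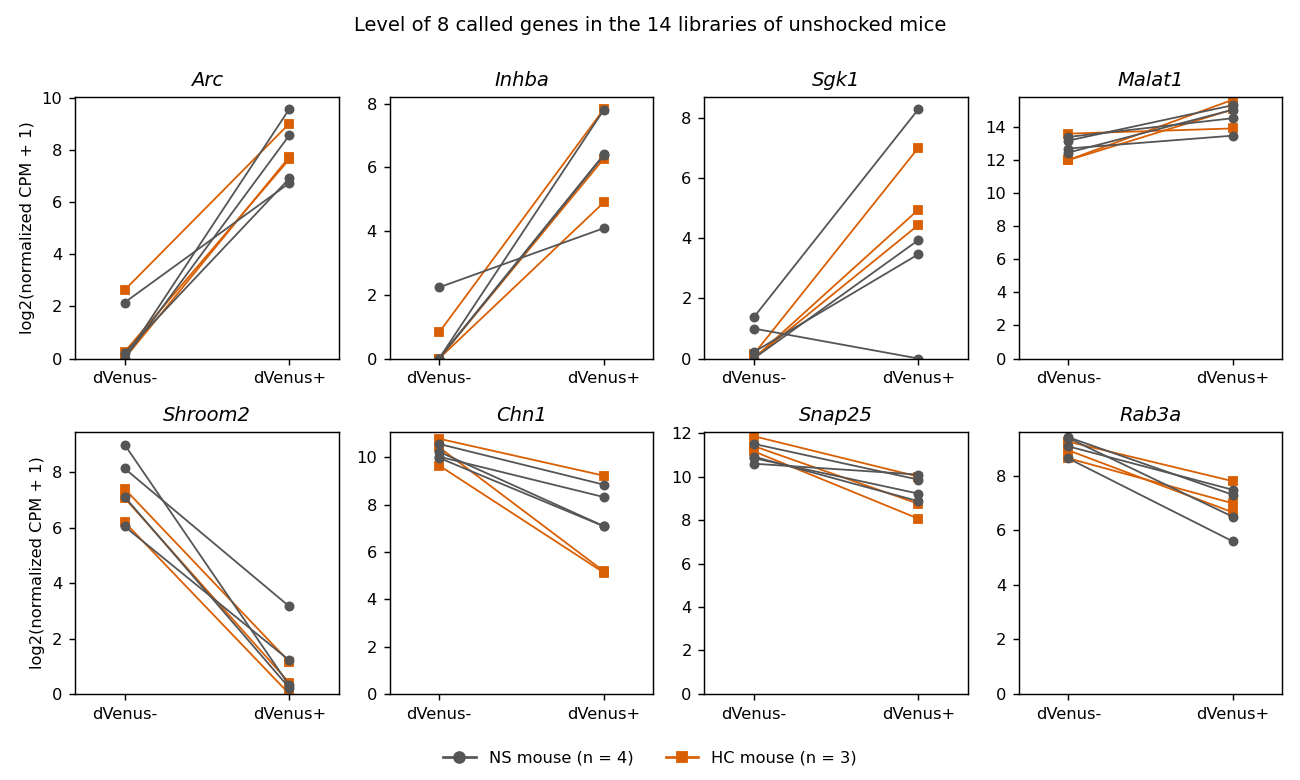
Levels of Arc, Inhba, Sgk1, Malat1, Shroom2, Chn1, Snap25 and Rab3a in each library, as log2(normalized CPM + 1), with lines joining the libraries of a mouse (gray circles NS, n = 4, orange squares HC, n = 3). Arc, Inhba and Malat1 were higher and Shroom2, Chn1, Snap25 and Rab3a lower in dVenus+ cells of 7 of 7 mice, while Sgk1 was higher in 6.

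Of the other slow activity genes, 4 with high values in most dVenus+ libraries did not pass the test. Bdnf, the brain-derived neurotrophic factor, measured 132 to 330 in dVenus+ (median 256.3) and 1.91 to 327 in dVenus- libraries (median 59.5), and was higher in 7 of 7 mice (log2 fold change 2.64, SE 0.82, adjusted p = 0.109). Nptx2, a secreted pentraxin that gathers AMPA receptors, had a median of 31.9 in dVenus+ and 0 in dVenus- cells (5.07, SE 1.56, adjusted p = 0.106, higher in 6 mice). Penk, the enkephalin precursor, measured 6.72 to 364 in dVenus+ (median 137) and 0 to 421 in dVenus- cells (median 18.6; log2 fold change 3.05, adjusted p = 0.183, higher in 6 mice). Sorcs3, a sorting receptor, measured 1.29 to 320 (median 155) against 0.146 to 70.3 (median 5.42), higher in 7 of 7 mice (2.94, adjusted p = 0.191). In these 4 genes 1 dVenus- library, that of HC mouse 17, held the highest dVenus- level, 327 for Bdnf, 38.8 for Nptx2, 421 for Penk and 70.3 for Sorcs3. Its Arc level, 5.16, was also the highest of the dVenus- libraries, but below every dVenus+ library.

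Of the delayed activity-regulated genes listed, 27 were tested, with 16 values above and 11 below 0. Of these, 2 rose (Inhba and Sgk1), none fell, and the median log2 fold change was 0.37, beside -0.15 for all genes tested. Both that rose had passed the count filter mainly through dVenus+ libraries. At an unadjusted p under 0.05, 8 were higher and 3 lower, the lower ones being Dusp14 (-5.30), Camkv (-2.28) and Nptx1 (-1.26). Of the rapid ones, 16 were tested, Arc rose, 8 had values above and 8 below 0, and the median was -0.17. Fos, the partner of Jun in the AP-1 factor, was below the count filter, with 0.208 to 11.6 in dVenus+ and 0 to 11.4 in dVenus- libraries. Jun itself was lower in dVenus+ cells of 7 of 7 mice (9.05 to 111 against 79.0 to 674, log2 fold change -2.34, adjusted p = 0.0967). Atf3, a stress- and activity-induced factor that was not tested either, measured 0 to 89.4 in dVenus+ cells (median 14.9) and at most 0.143, or 1 count, in dVenus- cells. It was higher in 6 of 7 mice, but in mouse 20 only by 1 count against 0. Of 13 tested genes for CREB and its coactivators none was called, with a median of 0.10.

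The 300 bases around the start of transcription are shown for 3 of the genes on which these results turn, 1 for each kind of change: the activity gene Inhba, the noncoding RNA Malat1, and Shroom2, which fell with the smallest p. The sequences are those of RefSeq for GRCm38.p6, from 250 bases before to 50 after the start, on the strand of the gene. Inhba is at chr13:16011601-16011900 on the plus strand, Malat1 at chr19:5802623-5802922 and the most upstream of 4 starts of Shroom2 at chrX:152769437-152769736, both on the minus strand. Capitals mark TGACG and CGTCA, which are the 2 strands of the core of the cAMP response element bound by CREB, and TATAAA or TTTATA, the 2 strands of the TATA box.
Inhba: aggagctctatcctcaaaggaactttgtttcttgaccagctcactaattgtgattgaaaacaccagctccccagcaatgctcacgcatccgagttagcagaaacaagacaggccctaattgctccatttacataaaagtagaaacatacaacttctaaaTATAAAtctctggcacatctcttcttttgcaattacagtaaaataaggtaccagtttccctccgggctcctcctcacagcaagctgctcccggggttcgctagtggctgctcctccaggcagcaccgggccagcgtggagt
Malat1: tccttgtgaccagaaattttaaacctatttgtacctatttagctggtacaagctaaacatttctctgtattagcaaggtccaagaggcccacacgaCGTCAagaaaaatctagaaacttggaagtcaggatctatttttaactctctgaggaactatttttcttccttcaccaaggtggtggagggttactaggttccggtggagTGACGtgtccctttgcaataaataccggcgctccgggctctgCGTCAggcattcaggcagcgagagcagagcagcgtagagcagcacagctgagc
Shroom2: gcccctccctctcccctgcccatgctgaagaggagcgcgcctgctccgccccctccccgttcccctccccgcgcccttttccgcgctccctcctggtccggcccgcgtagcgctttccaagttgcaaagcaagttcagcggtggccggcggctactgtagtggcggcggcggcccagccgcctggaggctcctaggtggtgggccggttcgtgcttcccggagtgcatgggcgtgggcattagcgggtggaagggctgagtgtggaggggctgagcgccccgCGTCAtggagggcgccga
Position 1 is the first transcribed base. In the window of Inhba TATAAA began at position -91 and there was no CRE core. In that of Malat1 a CRE core began at -154, at -45 and at -3, and in that of Shroom2 at 33. A CRE core occurred in 20.8% of all 32851 promoters of this length in the table, the full element TGACGTCA in 1.79%, and TATAAA or TTTATA in 13.6%. Counting a gene when any of its starts held the letters, a CRE core was found for 6 of 17 genes called higher (35.3%), 6 of 20 called lower (30.0%) and 38.3% of the 5637 tested genes with an entry. The TATA letters were found for 5 of 17 called higher (29.4%), 4 of 20 called lower (20.0%) and 8.59% of the tested genes. The higher and lower genes thus held the CRE core in shares near that of all genes tested. The shares with TATA letters were larger in both called sets than in all genes tested, on few genes, and this was not tested.

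Malat1 and Kcnq1ot1, long noncoding RNAs that stay in the nucleus, rose in dVenus+ cells. Malat1, at chr19:5795690-5802672, measured 11351 to 51247 in dVenus+ (median 33651) and 4064 to 12339 in dVenus- libraries (median 6619), with 1 library of each kind crossing. It was higher in 7 of 7 mice, by 1.96 (SE 0.29, adjusted p = 0.00121). Kcnq1ot1, at chr7:143203458-143296549, measured 638 to 3221 (median 1074) against 109 to 734 (median 373), a log2 fold change of 1.90 (SE 0.45, adjusted p = 0.0491, 7 of 7 mice). The call was lost without any 1 of the mice (adjusted p = 0.0527 to 0.178). Kcnq1ot1 is transcribed antisense to Kcnq1, and without strand information reads of either gene in shared sequence cannot be told apart. All 7 tested members of this list had a log2 fold change above 0, with a median of 1.64. Snhg11 (3.59, adjusted p = 0.0877) and Meg3 (1.64, adjusted p = 0.0884) had medians of 538 and 1091 in dVenus+ against 67.0 and 468 in dVenus- cells, each higher in 6 of 7 mice. With the share of reads outside genes as a covariate the median of the list was 0.81 and 2 of its 7 members were below 0.

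Shroom2, which encodes an actin-binding protein of cell shape at chrX:152609509-152769465, was the gene that fell with the smallest p. It measured 0 to 7.93 in dVenus+ libraries (median 0.323) and 65.2 to 512 in dVenus- libraries (median 138). Every dVenus+ library was below every dVenus- library, and 3 counts, the floor of detection, stood for 0.219 to 0.970 normalized CPM, so that most dVenus+ libraries were near it. The log2 fold change was -7.23 (SE 1.03, adjusted p = 3.69e-04, lower in 7 of 7 mice) and lay between -8.07 and -6.34 when 1 mouse was left out. A level in 10 cells joins how many cells held the RNA with how much each held, and fewer cells of a type cannot be told apart from less RNA per cell.

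Genes of the synapse and of calcium signaling were among those that fell. Chn1, chimaerin 1, which inactivates the GTPase Rac, measured 33.9 to 598 in dVenus+ (median 135) and 806 to 1768 in dVenus- libraries (median 1207), with no overlap (log2 fold change -2.91, SE 0.52, adjusted p = 0.00836). Snap25, a SNARE protein of vesicle fusion, measured 267 to 1096 (median 596) against 1551 to 3735 (median 2306; -1.93, SE 0.37, adjusted p = 0.0174). Rab3a, the GTPase of synaptic vesicles, measured 46.9 to 220 (median 125) against 394 to 676 (median 536; -2.15, SE 0.51, adjusted p = 0.04996). These 3 genes were lower in dVenus+ cells of 7 of 7 mice without overlap of the groups. Of the 37 vesicle and SNARE genes tested, Snap25 and Rab3a fell, 19 others had values below 0 and 16 above, and the median was -0.19, close to that of all genes. Syn1, the vesicle phosphoprotein synapsin, had -2.42 with an adjusted p of 0.0972.

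Of the calcium sensors, Calm2, a calmodulin gene, measured 389 to 2716 in dVenus+ (median 1394) and 2036 to 5959 in dVenus- libraries (median 3520; log2 fold change -1.70, SE 0.34, adjusted p = 0.0214). Ncald, neurocalcin delta, measured 10.4 to 392 (median 155) against 591 to 1363 (median 869) without overlap (-2.68, SE 0.54, adjusted p = 0.0223). Ncdn (neurochondrin, an inhibitor of the kinase CaMKII) fell as well (-1.95, SE 0.42, adjusted p = 0.0346). All 3 were lower in 7 of 7 mice. In the list of calcium and calmodulin kinases and calcineurin, 19 genes were tested, Calm2 fell, 16 values in all were below 0, and the median was -1.05. It stayed between -1.20 and -0.78 under every other setting and without any 1 mouse. The list was not matched by level, and the highest of 5 groups of tested genes by level had a median of -0.67. Ppp3ca, the catalytic subunit of calcineurin, had -1.41 (adjusted p = 0.0856), and Camk2b had -1.40 (adjusted p = 0.125).

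Adaptor and metabolic genes were also among those that fell. Ywhah, a 14-3-3 adaptor, measured 98.4 to 691 in dVenus+ and 711 to 2326 in dVenus- cells (log2 fold change -2.28, adjusted p = 0.0201). Idh3a, a subunit of the isocitrate dehydrogenase of the citric acid cycle, measured 2.07 to 85.8 against 112 to 665 (-3.69, SE 0.77, adjusted p = 0.0250). Both were without overlap. Acot13, an acyl-CoA thioesterase, measured 0.208 to 161 (median 1.29) against 119 to 336 (median 210; -5.05, SE 1.01, adjusted p = 0.0201). Its highest dVenus+ value, 161, was that of mouse 17, beside 174 in the dVenus- library of the same mouse, while the other dVenus+ libraries reached 16.7. Ctxn1 (-2.99, adjusted p = 0.0223), Pea15a (-2.49, adjusted p = 0.0282) and the ferritin heavy chain Fth1 (-1.45, adjusted p = 0.0223) fell in 7 of 7 mice. Rpl34, the only ribosomal protein gene called, fell from at most 9.40 to at most 2.24 (-4.10, adjusted p = 0.04996), and since near-identical copies of it exist in the genome its count is uncertain. Of the other genes that fell, Hpca (hippocalcin, -2.38), Rgs14 (-5.43), Adcyap1r1 (the PACAP receptor, -3.17), Dpysl2 (-2.31), Actb (-1.24) and Tpi1 (-2.01) were named after their values were seen. Hpca had an adjusted p of 0.0362 and each of the others 0.04996, just under the threshold. Rgs14 was lower in 6 mice and had 0 counts in both libraries of mouse 16.

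The other higher genes were mostly of low level. Rnft1, a RING finger ubiquitin ligase at chr11:86484657-86499025, measured 1.46 to 162 in dVenus+ (median 50.7) and 0 to 1.14 in dVenus- cells (median 0), which is 13 to 1375 counts against 9 at most. The RNA 3632454L22Rik measured 1.57 to 3.56 against 0 to 0.508, or 10 to 14 counts against 4 at most. These 2 genes passed the count filter through dVenus+ libraries alone, so they had to differ, and their place among the 57 called genes is a description only. Medag measured 4.78 to 30.1 against 0 to 1.43 (log2 fold change 4.45, adjusted p = 0.0362), and Ptprb, a receptor phosphatase best known from vessels, 0.163 to 18.3 against 0.0793 to 1.17 (4.00, adjusted p = 0.0362). A630033H20Rik, Kif15, Mob3c, Tdrd1 and Rgs9bp rose by 2.16 to 3.66, none above 9.08 in any library. In all, 9 of the 24 higher genes were under 10 normalized CPM in every library, against 1 of the 33 lower ones. Of the genes tested, 139 were under that level in every library, and 130 of them had a log2 fold change above 0. The count filter also bears on the higher genes. Of the 24, 2 reached 10 counts in dVenus+ libraries alone and 11 in at most 1 dVenus- library, and 4 reached it in all 14, so some of them had to differ to be tested. Of the 33 lower genes, 17 reached it in all 14.

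Sign and level went together over the whole table. When the tested genes were ranked by their mean share of the reads, the lowest of 5 equal groups (1.16 to 14.0 normalized CPM) had a median log2 fold change of 0.99 with 30.2% of the genes below 0, and held 16 of the higher and 1 of the lower calls. In the top group (78.1 and above) the median was -0.67, 74.6% of the genes were below 0, and 5 higher and 25 lower genes were called. The 3 groups between had medians of 0.05, -0.20 and -0.37. Over all 7529 genes the median was -0.15 and 53.9% were below 0, and scaling by the size factors of DESeq2 moved the median up by 0.10. Rn45s rose in 6 of 7 mice (1.88, SE 0.36, adjusted p = 0.0174), as did Lars2, the mitochondrial leucyl-tRNA synthetase, in 5 (1.94, adjusted p = 0.04996). Lars2 measured 23331 to 266790 in dVenus+ (median 106490) and 3281 to 140440 in dVenus- libraries (median 13620). Its highest library, dVenus+ of HC mouse 16, and its lowest, dVenus- of HC mouse 15, were also those of Rn45s. Whether the reads listed for Lars2 came from its mRNA was not tested. With the Rn45s share as a covariate the signs of Rn45s and Lars2 turned, to -0.12 and -0.48. These 2 genes were named after their values were seen. In the GENCODE annotation, 17 of 22 higher genes with a match were protein coding, 31 of 31 lower ones, and 97.5% of all matched genes.

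**Figure D3:**
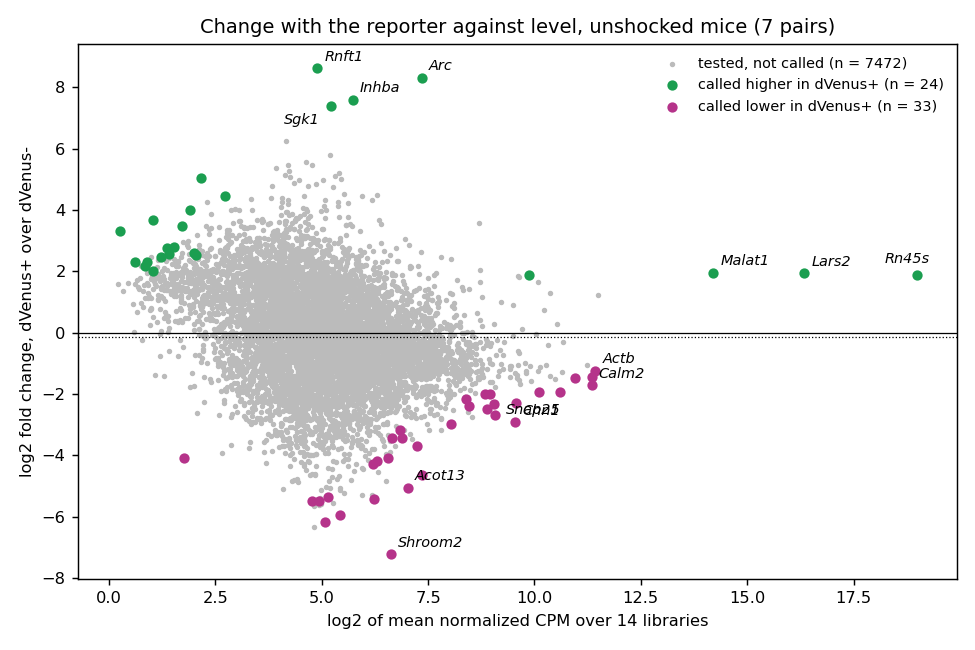
Log2 fold change of dVenus+ against dVenus- cells plotted against the log2 of the mean normalized CPM over the 14 libraries, for 7529 tested genes. Genes called higher (green, 24) lay mostly at the left, at low levels, genes called lower (magenta, 33) mostly at the right, and the dotted line is the median of all genes (-0.15).

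Genes of the respiratory chain and of the ribosome had values below 0 as groups, with almost no single gene called. Neither list was matched by level. The highest of the 5 groups of tested genes by level had a median of -0.67, with 74.6% of genes below 0. The ribosomal median given below, -0.58, was not lower than that. Of 75 nuclear-encoded respiratory chain genes tested, 72 were below 0, the median was -1.03 and none was called. The lowest p-values were those of Uqcrc1 of complex III (0.647 to 99.3 in dVenus+ against 18.8 to 629 in dVenus- cells, -2.79, adjusted p = 0.0612) and Atp5a1 of the ATP synthase (30.6 to 682 against 513 to 1143, -2.29, adjusted p = 0.0622), both lower in 7 of 7 mice. The median of this list stayed below that of all genes in each other setting, between -1.27 with the Rn45s share and -0.46 with the share of reads outside genes as a covariate (all genes 0.37 and -0.33). Of 76 cytosolic ribosomal protein genes, 61 were below 0, Rpl34 was called and the median was -0.58; with reads outside genes as a covariate it was -0.09, and in HC mice alone -0.11. Rps3 of the small subunit measured 19.6 to 134 against 162 to 977, without overlap (-2.29, adjusted p = 0.0967).

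For the remaining neuronal lists no gene was called apart from Arc in the first. The median was -0.24 for 22 Arc binding partners and endocytosis genes, -0.79 for 13 genes of gamma secretase and the amyloid precursor, -0.15 for 34 glutamate receptors and scaffolds, 0.01 for 14 GABA receptors, 0.17 for 28 potassium channels and 0.07 for 21 sodium, calcium and HCN channels. It was -0.27 for 34 genes of cyclic AMP and protein kinase A, 0.03 for 16 neuropeptides and their processing, -0.31 for 34 proteasome subunits, -0.39 for 35 heat shock proteins and chaperones, and -1.20 for 10 genes of glutathione and hypusine synthesis. In each of these lists, as for the rapid activity genes, the CREB list and the vesicle list, the sign of the median changed with some setting or left-out mouse, so no direction is given for them. Single members with the lowest p in their lists were Scn2b, a sodium channel beta subunit (25.5 to 136 against 180 to 493, -2.48, adjusted p = 0.0620), Cck, the cholecystokinin precursor (2.50 to 72.7 against 71.0 to 500, -3.45, adjusted p = 0.0620), and Npy (0 to 57.3 against 0 to 6.56, 4.78, adjusted p = 0.0967). Dusp14, a phosphatase of MAP kinases, had -5.30 (adjusted p = 0.0620) and was lower in 6 of 7 mice.

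**Figure D4:**
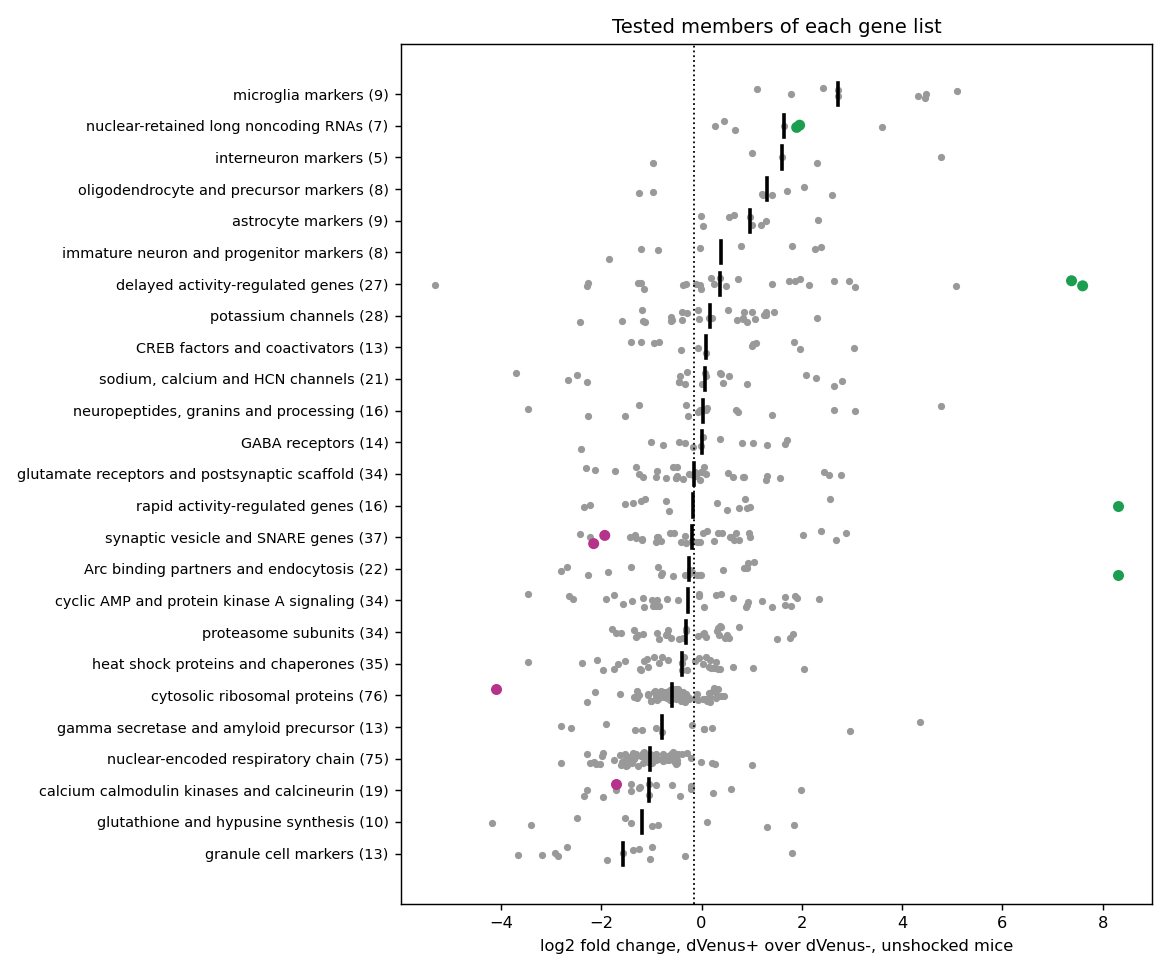
Log2 fold changes of the tested members of each gene list with at least 5 of them, with the list median as a black bar, called members colored and the median of all tested genes as a dotted line (-0.15). Microglia markers (median 2.73) and nuclear noncoding RNAs (1.64) lay to the right of it, and granule cell markers (-1.56), calcium and calmodulin genes (-1.05) and the respiratory chain (-1.03) to the left. The dotted line is not matched to the level of any list.

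The libraries held the RNA of granule cells, with a lower marker sum in dVenus+ cells. Prox1, the transcription factor that defines granule cells, had at least 10 counts in 14 of 14 libraries, 3.25 to 24.6 normalized CPM in dVenus+ and 21.1 to 192 in dVenus- libraries (log2 fold change -2.93, adjusted p = 0.101, lower in 7 of 7 mice). Calb1 of mature granule cells measured 2.77 to 301 against 66.1 to 774 (-3.18, adjusted p = 0.101). Of 15 granule cell markers 13 were tested, 12 were below 0, none was called, and the median was -1.56. Their summed level was 299 to 1235 in dVenus+ (median 650) and 1446 to 3063 in dVenus- libraries (median 2096), without overlap and lower in 7 of 7 mice. Tdo2, which has been used as a marker of mature granule cells, never exceeded 5 counts.

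Markers of microglia had higher values in most dVenus+ libraries. All 9 tested of 15 had a log2 fold change above 0, with a median of 2.73, and none was called. Ctss had 4.32 (adjusted p = 0.0622) and C1qa, of the complement factor C1q, 5.10 (6.16 to 161 against 0 to 67.5, adjusted p = 0.101). The smallest values were those of Laptm5 (1.78, adjusted p = 0.702) and Tyrobp (1.11, adjusted p = 0.766). Of the members not tested, Tmem119, P2ry12 and Fcgr3 reached their highest level in a dVenus- library, and Trem2, Aif1 and Itgam in a dVenus+ library. The summed level of all 15 markers was 92.1 to 1538 in dVenus+ (median 985) and 7.85 to 929 in dVenus- libraries (median 76.7), higher in 6 of 7 mice. The sum of astrocyte markers was 879 to 3302 against 479 to 4149 (higher in 5 mice, list median 0.98), that of oligodendrocytes 717 to 1728 against 124 to 3749 (3 mice, 1.31), and that of endothelium 1.12 to 57.4 against 0 to 40.7 (6 mice, with 1 gene tested, at 1.67). Interneuron markers summed to 223 to 508 against 94.6 to 1058 (4 mice, list median 1.60), with Vip at 1 count at most; those of mossy and pyramidal cells to 22.6 to 152 against 43.5 to 444 (4 mice, list median -1.31 over 2 genes), with Drd2 at 2 counts at most. Those of immature neurons summed to 255 to 638 against 444 to 1309 (higher in 0 mice, list median 0.38). No marker of any of these lists was called. The lower granule sum and higher microglia sum moved with the same contrast as the neuronal genes that fell, and their part in those results was not tested.

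NS and HC mice were compared to see whether exposure to the context changed the contrast. Context and tones of the protocol cannot be told apart here. No gene of 7529 (0%) differed between them in the dVenus+ change at an adjusted p under 0.05 in edgeR, 359 had an unadjusted p under 0.05, the smallest adjusted p was 0.986, and DESeq2 gave 367 genes. Of the 57 called genes 1 had an unadjusted p under 0.05 for this difference. The called genes were chosen on these same mice, so the values of NS and HC mice that follow are a description. Arc had a mean difference of 7.35 in NS and 7.17 in HC mice on the log2 normalized CPM scale with a prior count of 1, Inhba 5.61 and 6.06, Malat1 1.66 and 2.34, Shroom2 -6.35 and -6.37, and Chn1 -2.37 and -3.78. Genes with a small unadjusted p for a difference included Trmt2a (NS minus HC 10.8 on the log2 scale, SE 2.66), Nfx1 (9.15, SE 2.36), Gcn1l1 (-9.58) and Psmf1 (-14.0). These genes were picked by their small p, so their SEs, with 4 and 3 mice, do not show what size of difference could escape the test.

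The 12 FC mice gave an independent set of animals in which the same contrast could be read. Of the 57 genes 53 were tested there, and 44 had the same sign (16 of 20 higher and 28 of 33 lower), against 4444 of 7289 genes tested in both, or 61%. Of the 4 not tested there, 3632454L22Rik was lower in dVenus+ cells of 11 of 12 FC mice (difference between the groups, adjusted p = 0.113). The other 3, Rgs9bp, Ptprb and Cobl, were higher in more FC mice than they were lower. In FC mice 422 of 9709 genes (4.35%) were called, and 18 of the 57 were among them, all with the same sign (5 higher and 13 lower). They were 34% of the unshocked calls tested in FC mice and 5.1% of the 353 FC calls tested in unshocked mice. The median absolute log2 fold change of the called genes was 2.79 in unshocked and 0.82 in FC mice, and 2 genes had a larger one in FC mice. The unshocked values had chosen these genes, so their larger size there is no finding.

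Arc had 8.31 (SE 1.05) in unshocked and 8.75 (SE 0.95, adjusted p = 6.49e-07) in FC mice, and in the joint fit of all libraries the difference, unshocked minus FC, was 0.02 (SE 1.16). Inhba had 7.09 in FC mice (adjusted p = 1.45e-06), Malat1 1.53 (5.53e-04), Sgk1 2.70 (0.0199), Shroom2 -3.35 (0.0182), Chn1 -1.64 (0.00128), Rab3a -2.17 (4.17e-04), Ncald -2.54 (2.0e-04) and Ncdn -1.33 (0.00829). Snap25 with -0.64 (adjusted p = 0.135), Kcnq1ot1 with 0.81 (0.0932), Rnft1 with 0.82 (0.707) and Fth1 with 0.05 (0.947) were not called there. Penk and Sorcs3, not called in unshocked mice, were called in FC mice, with 6.47 (adjusted p = 2.12e-06) and 7.70 (1.10e-07), and so were Nptx2 (5.50, 0.00117) and Bdnf (2.49, 5.26e-05). The difference between the groups did not pass for Penk, Nptx2 or Bdnf. Nor did it for Sorcs3 (unshocked minus FC -4.47, adjusted p = 0.244) or Shroom2 (-3.73, SE 1.46, adjusted p = 0.319). The fold changes of Bdnf and Nptx2 in unshocked mice, given above, were near those in FC mice. The median of the delayed activity list was 0.37 in unshocked and 1.61 in FC mice, and that of proteasome subunits -0.31 and 1.31. That of the respiratory chain was -1.03 and -0.43, that of granule cell markers -1.56 and -1.36, and that of all genes tested -0.15 and -0.08. The sign of the unshocked proteasome median changed with some setting or left-out mouse. No list was tested for a difference, and training and sample ID series cannot be told apart.

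**Figure D5:**
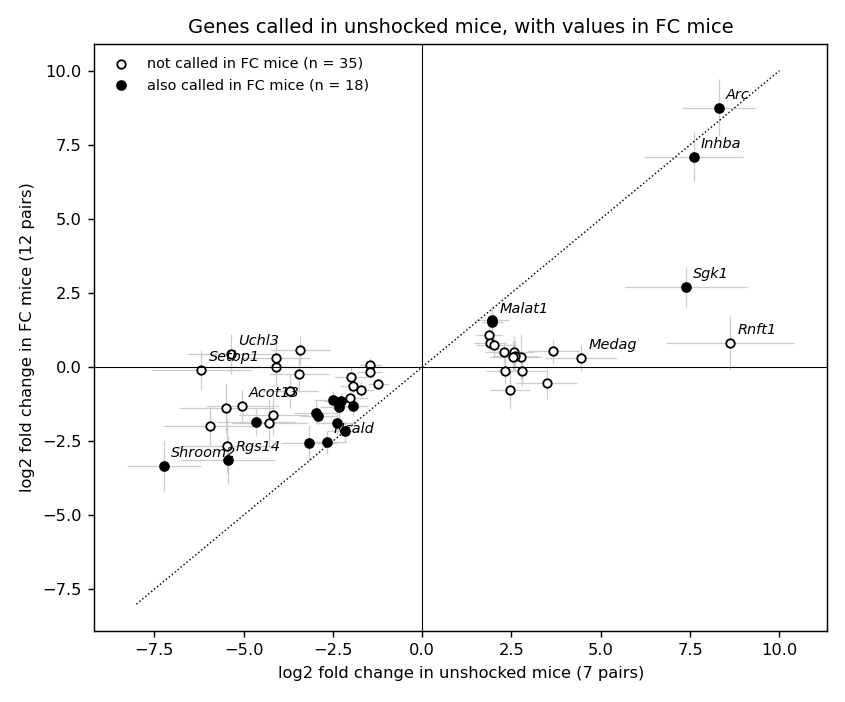
Log2 fold change in FC mice (y axis, n = 12) against that in unshocked mice (x axis, n = 7) for the 53 genes called in unshocked mice and tested in FC mice, with SEs as bars and equality as a dotted line. The 18 genes called in both (filled) all had the same sign, and most of the 35 others (open) lay nearer to 0 on the FC axis.

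When the difference itself was tested over all 38 libraries, Lpin1 and Dusp22 passed, 2 of 12147 genes (0.0165%), with 1453 at an unadjusted p under 0.05 and 1537 called by DESeq2. FC mice carried other sample ID series, so training and series cannot be told apart. Lpin1, a phosphatidate phosphatase, measured 0 to 101 in unshocked dVenus+ cells (median 8.74) and 0 to 0.254 in dVenus- cells, and its difference, unshocked minus FC, was 12.74 (SE 2.08, adjusted p = 0.0153). With at most 2 counts in an unshocked dVenus- library, that fitted size depends on the prior count. In FC mice Lpin1 was higher in dVenus+ cells of 0 of 12 mice (-4.74, SE 1.00, adjusted p = 0.0055). Dusp22, a phosphatase, measured 0.754 to 54.0 (median 8.85) against 0 to 0.958, higher in 7 of 7 unshocked mice, with a difference of 9.57 (SE 1.66, adjusted p = 0.0153). Both were below the count filter of the unshocked mice alone. Lpin1 was lost without mouse 18 or 19 (adjusted p = 0.0529 and 0.0531), Dusp22 without mouse 16, 17, 18 or 19, and neither was left with any 1 FC sample ID series.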

How the data were processed

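RNA of 10 aspirated granule cells per library was amplified as full-length cDNA and sequenced in single reads of 50 bases. Per the labels and the methods of the study, the authors aligned reads to mm10 with TopHat2 2.0.13, and assigned uniquely aligned ones to NCBI transcripts with HTSeq 0.6.0. The deposited counts of 23420 genes are not normalized, and no molecular identifiers were used. Entries that name no gene were left out of library sizes and tests; reads outside genes made up 16.4% to 44.9% of uniquely aligned reads in the 14 libraries. Groups came from sample titles and characteristics. The description labels of 10 of the 14 libraries name another library of the same training group than the titles and sample IDs do, which was not resolved; cell type and pairing by mouse rest on the titles and characteristics. Mice were separate animals, and any pair of libraries of a group had unequal counts in at least 7027 tested genes.

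Genes that reached 10 counts in 7 or more of the 14 libraries were tested in edgeR 4.0.16 (R 4.3.3; TMM, glmQLFit and glmQLFTest, two-sided) with the mouse as a block, and called at a Benjamini-Hochberg adjusted p under 0.05 and an absolute log2 fold change over 1. FC mice were fitted separately (12 or more of 24 libraries), and the difference between unshocked and FC mice over all 38 libraries. The pairing comes from the animal; deviations of the 2 libraries of a mouse correlated by -0.07 to 0.10 (median -0.0063), over 0.1 in 1 of 7. Normalized CPM are edgeR's CPM on the TMM-scaled library size. Each SE was taken as the absolute log2 fold change divided by the square root of the F statistic of its test. It was not estimated separately, and it is unreliable where the fold change is near 0. Floors of 3 counts cover counting error only. The code was checked on simulated counts.

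Genes named were Arc, the 12 higher and 12 lower called genes with the smallest p among those that moved alike in 7 of 7 mice, of each gene list the called members, up to 4 with the smallest p and up to 2 with the highest counts, the 5 with the smallest p for each difference between groups, and Malat1, Snhg11, Shroom2, Penk, Atf3, Inhba, Sorcs3, Nptx2, Sgk1, Dusp14, Bdnf and Fos; not all of them are described, and 1 gene that the rule names is not reported here. Members and lists were chosen with earlier results of these data known, so no list has a test. Alternatives were size factors and the Wald test of DESeq2 1.42.0, other filters, the older quasi-likelihood method, no mouse block, a covariate, NS or HC mice alone, single FC series and leaving out each mouse; those that involve Rn45s were chosen after seeing the data. Positions are from GENCODE vM21 (GRCm38, the build of mm10), matched by symbol for 7099 of 7529 tested genes, and promoters from RefSeq (GRCm38.p6), matched for 5637.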

Additional observations from a re-analysis of the deposited data

Results flagged for a closer look

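Of 50 results tested for a mouse that stands apart from the other 6, 2 did so, and chance gives about 1 in 20 such groups. Both came from HC mouse 17. Its log2 difference of Dusp14 was 4.23, while the other mice lay between -8.02 and -3.26 (median -5.65). Its log2 difference of C1qa was -3.26, while the others lay between 3.00 and 7.34 (median 5.39). In the dVenus- library of that mouse Dusp14 was listed at 0, and Bdnf, Penk, Nptx2 and Sorcs3 had their highest dVenus- levels.

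The dVenus+ change of 2 genes differed between unshocked and FC mice by the test of the difference itself. For Lpin1 it was 12.74 higher and for Dusp22 9.57 higher in unshocked mice, on the log2 scale. No unshocked dVenus- library held more than 2 counts of Lpin1, and both libraries of mice 16 and 17 held 0, so its fitted size depends on the prior count. The call was lost for Lpin1 without mouse 18 or 19, and for Dusp22 without mouse 16, 17, 18 or 19. Training and sample ID series cannot be told apart in this comparison.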

How the results depend on the processing

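Of the 57 genes called with the mouse as a block, the count moved to 36 with size factors, 8 with no filter beyond 1 count, 7 with a filter of 10 counts in 3 libraries, 2 with the older quasi-likelihood method, 1065 with DESeq2 and 139 with no replicate block (mice not paired; 49 of the 57 shared). It was 4 in NS and 0 in HC mice alone, and 0 with reads outside genes or the Rn45s share as a covariate (532, 856 and 667 at an unadjusted p under 0.05). Without Rn45s it was 62, and without 1 mouse 4 to 45. The counts that follow leave out genes named only in passing, such as Hpca and Cobl. Of the 30 called genes described more fully, 8 kept their call with no filter, 7 with 3 libraries and 2 with the older method. The number was 3 in NS mice, 0 in HC mice, 0 with either covariate, and 4 to 23 without 1 mouse. Only Rn45s (-0.12) and Lars2 (-0.48) changed sign, both with the Rn45s share as a covariate; the cause was not tested beyond that covariate being the Rn45s share itself.

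The NS to HC difference gave 367 genes in DESeq2 and 0 in edgeR without pairing (737 at an unadjusted p under 0.05) or without any 1 mouse (282 to 422). The difference from FC mice gave 1537 genes in DESeq2, 313 without the replicate block, 0 to 4 without 1 mouse, and 0 against the FC mice of each of the 3 sample ID series alone (521, 562 and 1147 at an unadjusted p under 0.05). The means of the 4 library measures kept their sign without any 1 mouse: -1978900 to -1375100 reads, 528 to 1369 genes, 9.75 to 16.0 points outside genes and 24.6 to 36.3 points in the 10 largest genes. Depth limits the low genes: 3 counts stood for 0.219 to 0.970 normalized CPM.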
